A study of Mus musculus with 4 samples.

Results

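The replication fork genes described here are the 10 mouse genes Pola1, Prim1, Pold1, Pole, Pcna, Fen1, Lig1, Rpa1, Rpa2 and Rpa3. They were chosen by name, as the catalytic subunits of the replicative polymerases, the primase, the sliding clamp, the flap nuclease, the ligase and the subunits of the single-strand binding protein RPA. All 10 were found among the 55401 gene identifiers of the count files. The study asked how a mother's diet alters her daughters' oocytes before birth. ICR females were kept for 4 months on a high-fat diet (HFD) or, as controls, on a normal diet (ND), and were then mated with normal males. SSEA-1-positive germ cells were sorted from the ovaries of their fetuses late in gestation, at E18.5, and polyadenylated RNA was copied and amplified by SMART-Seq2, which is made for a few cells. There were 2 ND libraries and 2 HFD libraries, each from a pool of oocytes of several fetuses. The labels call the cells primordial germ cells and the study calls them fetal oocytes. Whether the 2 pools of a diet came from separate litters is not given in the sources used here, so p-values measure only the spread between these samples.

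A replication fork is copied by a division of labour. Polymerase alpha and primase lay down short primers, polymerase epsilon extends the leading strand and polymerase delta the lagging strand, and both are held on DNA by the ring-shaped clamp PCNA. On the lagging strand, flap endonuclease 1 trims the displaced primers and DNA ligase 1 seals the remaining nicks, while the RPA trimer covers single-stranded DNA. Female mouse germ cells pass through their last round of replication before meiotic prophase and do not divide at E18.5. The same proteins also serve DNA repair, and RPA coats the single-stranded tails of meiotic double-strand breaks.

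Library totals ran from 5723605 to 8223255 counted reads, so that 3 counts were worth 0.365 to 0.524 CPM, the unit of counts relative to the library total. The libraries stood apart within each diet. TMM scaling factors were 1.02 and 0.940 in ND replicates 1 and 2, and 0.692 and 1.51 in HFD replicates 1 and 2. Of 8 germ cell markers, all 8 exceeded background in each ND library, but only 5 in each HFD library. The RNA helicase gene Ddx4, a defining germ cell marker, had 49 and 97 counts in ND and 5 and 14 in HFD. Other markers of the list went the other way, as the synaptonemal complex gene Sycp1 with 36 and 48 counts in ND and 9038 and 7978 in HFD, and the fitted log2 fold change was above 0 for 4 of the 8 and below 0 for 4. Background was read from 1093 olfactory receptor genes, which oocytes should hardly express. The limit was the 99th percentile of their reads per kilobase in the same library, and a gene at 3 counts or fewer never passed it. It was 8.49 and 8.99 in ND replicates 1 and 2, and 7.36 and 12.5 in HFD replicates 1 and 2. The share of all genes past the limit was not measured, so counts of genes past it cannot be set against all genes.

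In most libraries these genes were scarce, and in single libraries a few of them were very abundant. Of the 40 pairs of a gene and a library, 17 exceeded background, with 7 genes in ND replicate 1, 6 in ND replicate 2, 2 in HFD replicate 1 and 2 in HFD replicate 2. The limit was not the same in each library and was highest in HFD replicate 2, so these counts do not rest on an equal bar. Rpa1 was at background at 8.21 CPM in HFD replicate 2, but exceeded it at 8.06 CPM in ND replicate 2. Lig1 exceeded background in all 4 libraries and Rpa2 in 3. Pcna, Pole and Prim1 did so in the 2 ND libraries, Pola1, Pold1, Rpa1 and Rpa3 in 1 library each, and Fen1 in none. A level over 50 CPM was reached by 6 genes, of which Pcna, Prim1, Rpa2 and Rpa3 reached it in 1 library and Lig1 and Pole in 2.

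**Figure D1:**
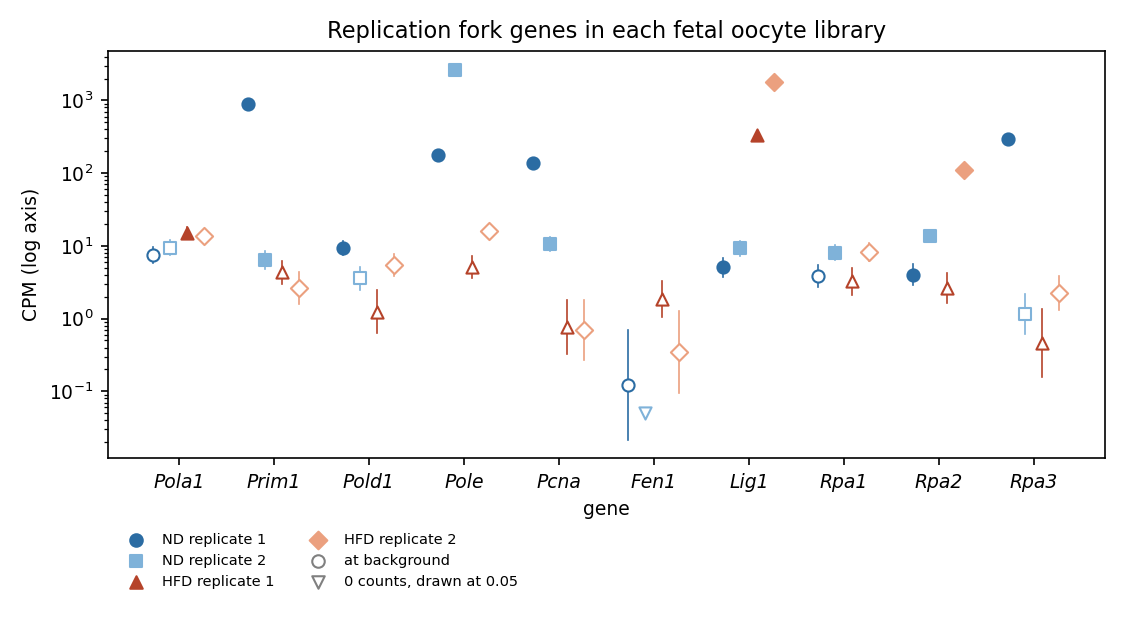
CPM of the 10 replication fork genes (log axis) in each of the 4 libraries, with lines for the 95% Wilson interval of the counting error and open symbols for values at background. Pole, Prim1, Pcna and Rpa3 each have their highest value in an ND library and Lig1 and Rpa2 theirs in HFD replicate 2, while Pola1 and Rpa1 stay between 3.25 and 15.02 CPM.

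One gene supplied most of the counts of the whole group in each library. The 10 genes together had 12589 counts in ND replicate 1, of which Prim1 held 58.1%. In ND replicate 2 they had 21156, of which Pole held 97.7%. Lig1 held 90.55% of 2371 counts in HFD replicate 1 and 91.8% of 11171 in HFD replicate 2. Replicates of a diet differed more than 10-fold in CPM for 4 genes in ND (Pcna, Pole, Prim1 and Rpa3) and 1 in HFD (Rpa2). Over all 19335 genes tested the median ratio between replicates was 1.83 in ND and 2.97 in HFD. A ratio over 10, or 1 replicate at 0, was seen in 11.7% of those genes in ND and 17.5% in HFD.

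Per length of exon, the mean order of levels differed between the diets. On a scale corrected for length (RPKM, the counts divided by exon length and scaled to the library total), the ND means were 131 for Rpa3, 126 for Pole, 116 for Prim1 and 30.8 for Pcna. The values of Rpa3, Pole and Prim1 in single ND libraries, 1.01 to 262, 15.9 to 237 and 1.65 to 230 RPKM, overlapped, so their order was not separated by the spread. Each of the other 6 genes had an ND mean between 0.0251 RPKM (Fen1) and 2.96 RPKM (Rpa2). In HFD, Lig1 led with a mean of 249 RPKM, and its lower library at 77.9 RPKM lay above the higher library of Rpa2 at 36.9 RPKM. The remaining 8 genes had HFD means between 0.307 RPKM (Pcna) and 1.63 RPKM (Pola1).

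Promoter sequences were at hand for 9 of the 10 genes, from RefSeq on GRCm38.p6, as 250 bases before to 50 bases after each start. They were searched on both strands for 4 spellings of the E2F core, which share their last letters. The first pair of spellings is TTCCCGC with its variant TTCGCGC, and the second pair is TTGCCGC with its variant TTGGCGC. E2F factors are the textbook regulators of genes for S phase. A match was present in 7 of the 9 genes, against 10.9% of 27025 genes with a promoter sequence and 13.7% of 17491 protein-coding genes. Pcna and Rpa1 held none of these letters in that window, and Pole had no entry. The matches nearest upstream of a start are shown here for 4 of the genes, with the match in capitals. For Pola1 and Rpa2 the match is on the opposite strand. They lie at 121 (Pola1), 15 (Prim1), 37 (Rpa2) and 29 (Rpa3) bases before the start, at chrX:93632259-93632287 (minus strand), chr10:128015189-128015217 (plus), chr4:132768312-132768340 (plus) and chr6:8259153-8259181 (minus).
Pola1: aatgcactcccGCGGGAAggccgggggcg
Prim1: ggcctgtcttgTTCCCGCcaattctcgtg
Rpa2: gctgtcccttcGCGGGAAggagtttgtgg
Rpa3: atctgcccgggTTGGCGCggccgcccgct

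These 4 genes did not share a pattern over the libraries: Prim1 and Rpa3 were highest in ND replicate 1, Rpa2 in HFD replicate 2, and Pola1 in HFD replicate 1.

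Pola1, the catalytic subunit of polymerase alpha (chrX:93304767-93632155, minus strand, GRCm38), was the most even of the 10 in CPM. Its counts were 61 and 74 in ND and 97 and 78 in HFD, in the order replicate 1, replicate 2. These were 7.42, 9.47, 15.02 and 13.6 CPM. Each HFD library was above each ND library, with a mean of 8.44 ± 1.45 CPM for ND and of 14.3 ± 0.986 for HFD (SD, n = 2). With TMM scaling the diets overlapped, since HFD replicate 2 fell to 9.34 and ND replicate 2 stood at 10.3. On that scale Rpa1, at 3.91 to 8.76, was more even than Pola1, at 7.46 to 22.0. Pola1 exceeded background only in HFD replicate 1.

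Prim1, the catalytic subunit of primase (chr10:128015168-128030037, plus strand), had 7310 and 50 counts in ND and 28 and 15 in HFD. The levels were 889 (95% Wilson interval 869 to 909.5) and 6.40 CPM in ND, and 4.34 and 2.62 CPM in HFD. A single library, ND replicate 1, held nearly all of its reads, and Prim1 ranked 333 of all genes there. The diets did not overlap in CPM, but the interval of ND replicate 2, 4.85 to 8.43 CPM, overlapped that of HFD replicate 1, 3.0 to 6.27. The other subunits of the complex had their highest counts in other libraries. Prim2, the large primase subunit, had 438 and 70 counts in ND and 1078 and 35 in HFD, so that replicate 1 was the higher library of each diet. The regulatory subunit gene Pola2 had 71, 460, 42 and 34 in the same order.

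Pold1, the catalytic subunit of polymerase delta (chr7:44532746-44548849, minus strand), had 76 and 28 counts in ND and 8 and 31 in HFD. Its CPM values of 9.24, 3.58, 1.24 and 5.42 overlapped between the diets. The ND mean was 6.41 ± 4.00 CPM and the HFD mean 3.33 ± 2.95 (SD, n = 2). Only ND replicate 1 exceeded background. Among the accessory subunits, Pold2 reached 188 counts in HFD replicate 1 against 22, 19 and 9 in the other libraries. Pold3 had 32, 85, 30 and 47 counts, and Pold4 had 2 to 6 in every library.

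Pole, the catalytic subunit of polymerase epsilon (chr5:110286306-110337474, plus strand), reached the highest CPM of the group, though per length Lig1 and Rpa3 reached higher values in single libraries. It had 1460 and 20670 counts in ND and 33 and 91 in HFD. The levels were 177.5 (interval 169 to 187) and 2645 (2609 to 2681) CPM in ND, and 5.11 and 15.9 CPM in HFD. Both ND libraries lay above both HFD libraries, and Pole ranked 82 among all genes of ND replicate 2. The ND mean was 1411 ± 1745 CPM and the HFD mean 10.5 ± 7.63 (SD, n = 2). Both HFD values were at background. Pole2, the second subunit, was at background in all 4 libraries, with 17 to 24 counts. The small histone-fold subunits followed other patterns: Pole3 had 35, 32, 33 and 1649 counts and Pole4 had 7419, 156, 837 and 31.

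**Figure D2:**
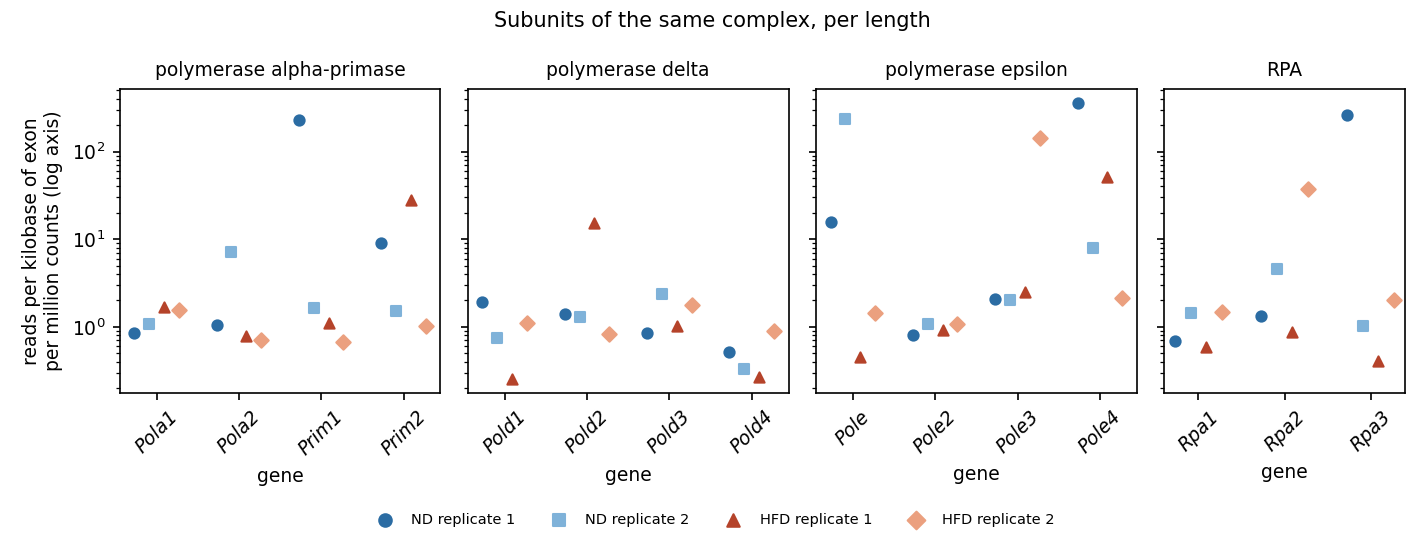
RPKM (log axis) of the subunits of polymerase alpha-primase, polymerase delta, polymerase epsilon and RPA in each of the 4 libraries. In the panels for polymerase epsilon and RPA the highest point belongs to a different library from one high subunit to the next, as for Pole at 237 RPKM in ND replicate 2, Pole3 in HFD replicate 2, Pole4 in ND replicate 1, Rpa2 in HFD replicate 2 and Rpa3 at 262 RPKM in ND replicate 1.

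Pcna, the sliding clamp (chr2:132249162-132253314, minus strand), had 1129 and 83 counts in ND and 5 and 4 in HFD. The levels were 137 (interval 129.5 to 145.5) and 10.6 (8.57 to 13.2) CPM in ND. In HFD they were 0.774 (0.331 to 1.81) and 0.699 (0.272 to 1.80) CPM. Both ND libraries exceeded background, neither HFD library did, and the counting intervals of the diets did not overlap. The ND mean was 74.0 ± 89.6 CPM and the HFD mean 0.737 ± 0.0534 (SD, n = 2).

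Part of the reads assigned to Pcna or to its copy may be uncertain. The processed pseudogene Pcna-ps2 (chr19:9283380-9284160, GRCm38) matches the Pcna coding sequence at 99.2% over 781 bases, with 6 substitutions. It had 524 and 8 counts in ND and 1 and 0 in HFD, the same order of libraries as Pcna. Reads that fall between these substitutions are identical in both genes, and how reads with several matches were counted is not given in the sources used here. The first 3 of the 6 positions are shown to give the distance between informative bases. They are A144G, A177C and G424A, counted from 1 at the first base of the Pcna coding sequence, with the Pcna base first. The sequences come from GENCODE M21 transcripts and the differing base is in capitals.
Pcna at 144: ctccttggtAcagcttact
Pcna-ps2 at 144: ctccttggtGcagcttact
Pcna at 177: cttcgacacAtaccgctgc
Pcna-ps2 at 177: cttcgacacCtaccgctgc
Pcna at 424: atgccgtcgGgtgaatttg
Pcna-ps2 at 424: atgccgtcgAgtgaatttg

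The clamp loader, replication factor C, opens PCNA and places it on DNA. Its subunit genes did not follow the diet order of Pcna. Rfc1 had 7757 and 66 counts in ND and 2586 and 80 in HFD, Rfc4 had 12409, 32, 6282 and 6, and Rfc5 had 8811, 67, 530 and 15. These 3 genes were high in replicate 1 of both diets. Rfc2 had 28 to 86 counts in every library and Rfc3 had 4 to 28.

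Fen1, the flap endonuclease (chr19:10199132-10204169, minus strand), was near the limit of detection. It had 1 and 0 counts in ND and 12 and 2 in HFD. Only HFD replicate 1, at 1.86 CPM (interval 1.06 to 3.25), lay above the 3-count floor, and no library exceeded background. At 0 counts, the interval of ND replicate 2 reached up to 0.492 CPM, and the 3-count floor of that library was 0.384 CPM. Exons of other genes on the opposite strand cover 84.2% of its 2422 exon bases. These are the antisense gene Gm10143 over 78.8%, with 3 to 10 counts, and Tmem258 over 5.37%, with 7181, 3, 742 and 7 counts. The strand setting of the counting is not given in the sources used here, so the reads of these overlaps cannot be told apart. Fen1 was not tested and no fold is given.

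Lig1, the replicative DNA ligase (chr7:13277283-13311433, plus strand), had 42 and 72 counts in ND and 2147 and 10258 in HFD. The levels were 5.11 (interval 3.78 to 6.90) and 9.21 (7.32 to 11.6) CPM in ND. In HFD they were 332.5 (319 to 347) and 1792 (1758 to 1827) CPM. All 4 values exceeded background, and both HFD libraries lay far above both ND libraries. The ND mean was 7.16 ± 2.90 CPM and the HFD mean 1062 ± 1032 (SD, n = 2), and Lig1 ranked 128 among all genes of HFD replicate 2. Zswim9, which shares 5.79% of the Lig1 exon bases on the opposite strand, had 48, 83, 23 and 13 counts. The ligases of other repair pathways were low: Lig3 had 33 and 38 counts in ND and 22 and 80 in HFD, and Lig4 had 30, 39, 24 and 87.

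The 3 RPA subunits, which act as one trimer, showed 3 different patterns. Rpa1, the large DNA-binding subunit (chr11:75298166-75348324, minus strand), had 32 and 63 counts in ND and 21 and 47 in HFD. Its CPM values of 3.89, 8.06, 3.25 and 8.21 overlapped between diets, and only ND replicate 2 exceeded background. Mean levels were 5.98 ± 2.95 CPM for ND and 5.73 ± 3.51 for HFD (SD, n = 2).

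Rpa2, the subunit phosphorylated in the damage response (chr4:132768332-132778752, plus strand), had 33 and 107 counts in ND and 17 and 632 in HFD. The CPM values were 4.01 and 13.7 in ND and 2.63 and 110 in HFD. The HFD libraries held both the lowest and the highest value, a ratio of 41.9, so the diets overlapped. Mean levels were 8.85 ± 6.84 CPM for ND and 56.5 ± 76.2 for HFD (SD, n = 2).

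Rpa3, the small subunit (chr6:8255936-8259173, minus strand), had 2445 and 9 counts in ND and 3 and 13 in HFD. The CPM values were 297 (interval 286 to 309) and 1.15 in ND and 0.465 and 2.27 in HFD. ND replicate 1 stood alone, 258-fold above ND replicate 2, and the other 3 libraries were at background. The processed pseudogene Gm6195 (chr1:9802197-9802553), 94.0% identical to the Rpa3 coding sequence over 365 aligned bases, had 9, 1, 1 and 7 counts. Meiob, an RPA-like protein of meiotic recombination, had 11 and 1363 counts in ND and 6 and 13 in HFD, and its partner Spata22 had 5, 0, 1 and 3.

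Compared between diets, none of the 10 genes passed the limits of an adjusted p under 0.05 and a fold change over 1.5. With edgeR's quasi-likelihood test and Benjamini-Hochberg adjustment, 0 of 19335 genes did (0.0%), and 2171 (11.2%) had an unadjusted p under 0.05. Of the 10 genes, 9 were tested. Pcna passed the filter on low counts only through the ND libraries, in which it was high, so its p is no separate support for that direction. Counts over the 9 tested genes include Pcna. Among the 9, 4 had an unadjusted p under 0.05, Lig1 with the higher value in HFD and Pcna, Pole and Rpa3 with the lower. The fitted log2 fold change of HFD over ND was above 0 for 3 and below 0 for 6, with a median of -1.24 against 0.03 over all genes tested. In bulk samples, fewer cells of a type and less RNA per cell cannot be told apart.

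The log2 fold changes with the largest size had large standard errors. For edgeR the standard error (SE) was the size of the log2 fold change divided by the square root of the test's F. It is therefore not a measure of spread separate from the p. Pole had -7.37 (SE 2.63, unadjusted p = 0.0339) and Rpa3 -7.03 (SE 2.64, unadjusted p = 0.0369) in edgeR's fit. Lig1 had 6.82 (SE 2.14, unadjusted p = 0.0210), Prim1 -6.78 (SE 2.82, unadjusted p = 0.0548) and Pcna -6.52 (SE 1.73, unadjusted p = 0.00850) in the same edgeR fit. All 5 had an adjusted p of 0.406 by edgeR's quasi-likelihood test with Benjamini-Hochberg adjustment. The other 4 had smaller differences: 2.07 (SE 1.59) for Rpa2, -1.24 (SE 0.66) for Pold1, 0.82 (SE 0.73) for Pola1 and -0.28 (SE 0.56) for Rpa1. Their adjusted p values in the edgeR fit ran from 0.443 to 0.900.

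Which library carried each difference was seen by leaving out 1 library at a time. Without ND replicate 1, the log2 fold change of Rpa3 went from -7.03 to -0.15 and that of Prim1 from -6.78 to -0.77. Pcna went to -3.82 without the same library, and Pole to -4.27 without ND replicate 2. Lig1 stayed between 6.06 and 7.37 over the 4 fits. The difference of Rpa2 turned to -1.23 without HFD replicate 2, and Pola1 went to 0.07 without HFD replicate 1. Pold1 ran from -1.79 to -0.49, the latter without ND replicate 1, and Rpa1 turned from -0.28 to 0.42 without ND replicate 2.

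**Figure D3:**
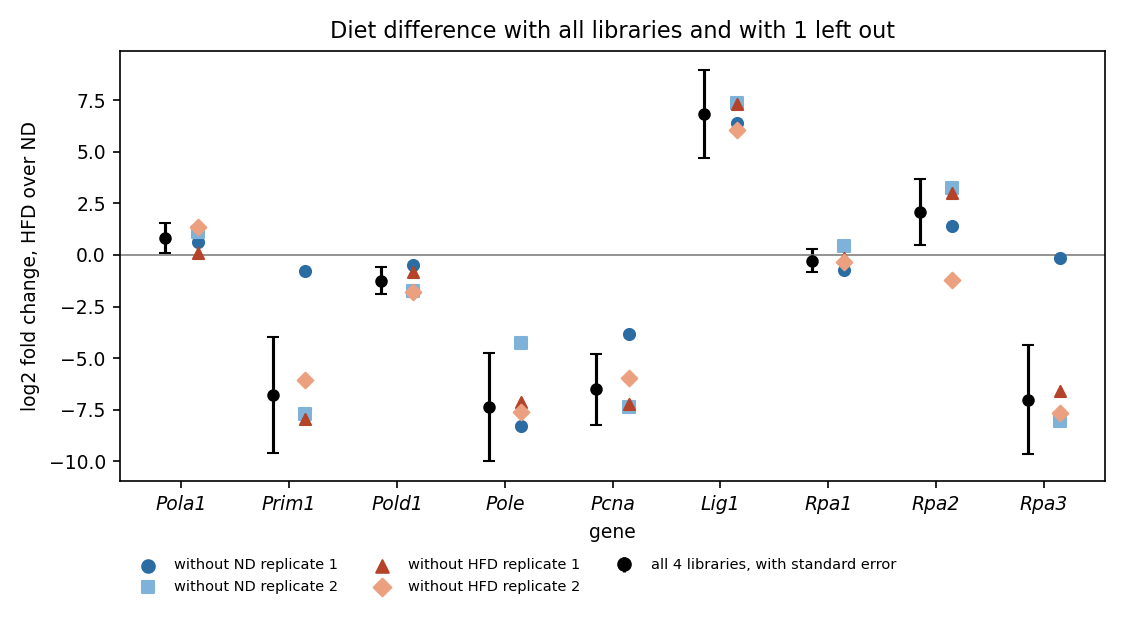
Log2 fold change of HFD over ND from edgeR's quasi-likelihood fit for the 9 tested replication fork genes, with all 4 libraries (black, bars for the standard error) and with each library left out (coloured). Lig1 stays above 6 and Pole and Pcna stay below -3.8 in every fit, while Prim1 and Rpa3 come near 0 without ND replicate 1.

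Counted by libraries alone, the diets did not overlap in CPM for 6 of the 10 genes. Lig1, Fen1 and Pola1 were higher in both HFD libraries and Pcna, Pole and Prim1 lower. For Fen1 this rests on 2 counts in HFD replicate 2, under the 3-count floor, against 1 and 0 in ND, and the counting intervals overlap. Among tested genes these were 5 of 9, against 27.3% of all genes tested. With TMM-normalized CPM they were again 5 of 9 tested genes, against 33.9% of all genes, with Pold1 (lower in HFD) in the place of Pola1. DESeq2's Wald test, the study's method, uses another estimate of the spread and gave other calls. It called 45.3% of the 5601 genes that received an adjusted p, 24.3% higher and 21.0% lower in HFD. Of the 7 replication fork genes with an adjusted p it called 5, Lig1 higher at an adjusted p of 2.53e-06 and Pole, Pcna, Prim1 and Rpa3 lower at an adjusted p of 5.83e-06 to 0.000333. Pold1, Rpa1 and Fen1 received no adjusted p from DESeq2.

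Of 62 other genes of the replication fork, its nucleotide supply and its meiotic counterparts, 56 were tested and none passed the limits in edgeR. Of these, 2 with higher and 8 with lower values in HFD had an unadjusted p under 0.05, against 11.2% of all genes tested. The fitted log2 fold change was above 0 for 19 and below 0 for 37, with a median of -0.52. Rnaseh1 (18 and 26 counts in ND, 2 and 0 in HFD) and Gins4 (19 and 22, 7 and 7) are among the 37. They passed the filter on low counts only through the ND libraries, in which they were high, so their direction is no separate support. DESeq2 called 6 of the 62 genes higher in HFD and 9 lower, against 24.3% and 21.0% of all genes given an adjusted p. How many of the 62 received an adjusted p is not reported here. Of the 62 genes, 32 and 34 exceeded background in ND and 15 and 11 in HFD, and Rfc1 and Pole3 did so in all 4 libraries. The background limit was highest in HFD replicate 2, and the same share over all genes was not measured.

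The 16 genes of the replicative helicase and fork protection had a median log2 fold change of -1.72 over the 14 tested, which include Gins4. Background was exceeded by 10 and 12 of the 16 in ND and 3 and 3 in HFD. Mcm4, a subunit of the helicase ring, had the smallest unadjusted p of all 62 genes. It had 137 and 97 counts in ND and 7 and 19 in HFD, both HFD libraries below both ND libraries, with a log2 fold change of -2.95 (SE 0.58, unadjusted p = 0.00217 in edgeR). Ubr7, listed with the partners of PCNA, had 30, 49, 8 and 17 counts. Rnaseh2b, a subunit of the RNase H2 that removes ribonucleotides from DNA, had 76, 125, 19 and 29.

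In the other direction, the 3 smallest unadjusted p values belonged to Tk1, Pole3 and Cdkn1a. Tk1, the thymidine kinase of S phase, had 15 and 10 counts in ND and 18 and 31 in HFD, and was at background in all 4. Pole3 rested on its 1649 counts in HFD replicate 2. Cdkn1a, which encodes the PCNA-binding cell cycle inhibitor p21, had 27 and 26 counts in ND and 5041 and 16 in HFD, so that HFD replicate 1 alone was high. By list, 0 of 6 Okazaki fragment genes exceeded background in either HFD library, against 2 and 3 in ND. The 8 other polymerase subunits did so for 5, 6, 4 and 1 genes in the same order of libraries.

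**Figure D4:**
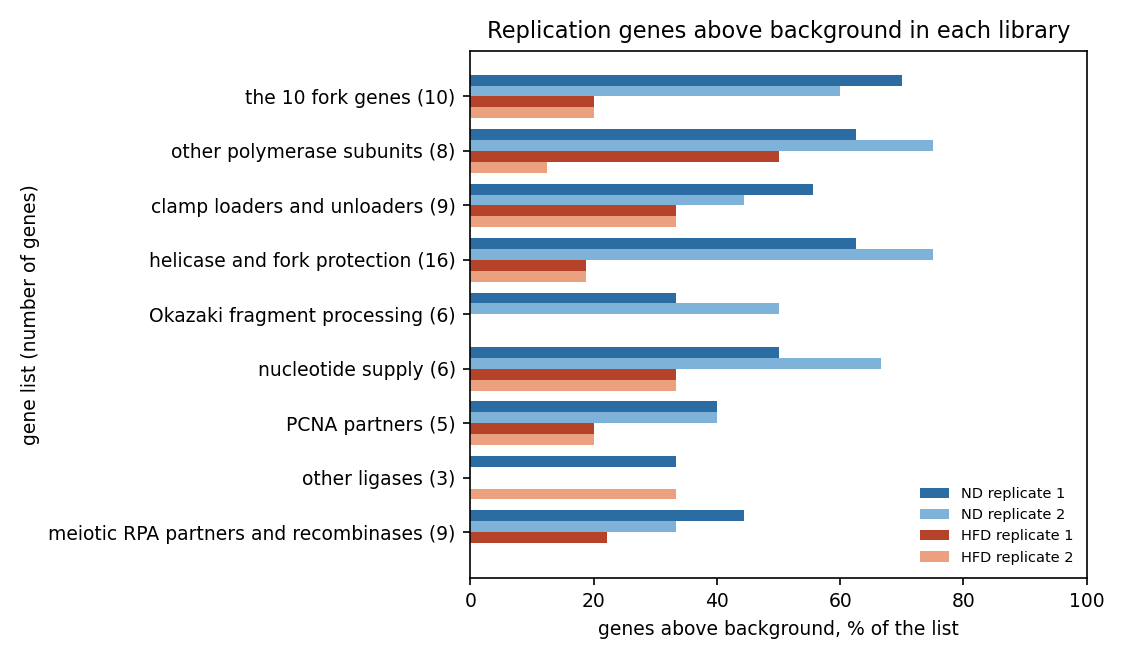
Percent of the genes of each replication list that exceeded the olfactory receptor background in each of the 4 libraries, with the number of genes in parentheses. Both ND bars lie above both HFD bars in every group of genes drawn except the 3 other ligases. The background limit was highest in HFD replicate 2, and the same share over all genes was not measured.

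Markers of other cells moved with single libraries. The 8 genes of cycling cells summed to 3173 and 118 CPM in ND and 1695 and 118 in HFD, with 6, 6, 4 and 5 of them above background. Cdk1 at 1689 CPM and Ube2c at 699 CPM carried most of the sum in ND replicate 1. In HFD replicate 1 these were Top2a at 1091 CPM and Cdk1 at 490 CPM. Ube2c, Ccna2 and Cdc20 were lowest in HFD replicate 1, at 0.465, 1.39 and 2.01 CPM, and Mki67 was at background in every library. Both high sums were in replicate 1, as for Rfc1, Rfc4 and Rfc5, and their part in the levels of the replication genes was not tested. The 6 blood genes summed to 1973 CPM in ND replicate 1, the library in which Prim1, Rpa3 and Pcna were highest, against 1.41 to 10.8 in the others, with 3, 0, 0 and 1 genes above background. The adult globin genes Hba-a1, Hbb-bs and Hbb-bt carried that sum.

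The 8 stroma genes summed to 2842 and 67.4 CPM in ND and 2220 and 7674 in HFD, with 6, 4, 3 and 5 above background. Col3a1 and Col1a1, at 2968 and 2741 CPM, and Postn, at 1272 CPM, carried most of the sum in HFD replicate 2. The 8 pregranulosa genes summed to 27.97, 403, 17.2 and 1156 CPM, with 2, 3, 0 and 2 above background. Amhr2 alone gave 1113 CPM in HFD replicate 2 and Fst alone 383 CPM in ND replicate 2, while the defining marker Foxl2 stayed between 2.17 and 5.94 CPM. Both sums were highest in HFD replicate 2, where Lig1 and Rpa2 were also highest. Of 6 endothelial genes 0, 1, 2 and 1 exceeded background, at 20.1, 69.7, 699 and 31.8 CPM. Of 6 macrophage genes 0, 0, 0 and 2 did so, at 9.85 to 40.2 CPM. The part of these cells in the results was not tested.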

How the data were processed

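RNA of sorted E18.5 germ cells was measured in 2 ND and 2 HFD libraries. Per the labels, the authors used FastQC, Trim Galore, HISAT2 on mm10 and featureCounts, and deposited raw counts per Ensembl gene. The annotation release, the strand setting and the treatment of reads with several matches are not given in the sources used here. Genes were named and placed with GENCODE M21 on GRCm38, which lists 55141 of the 55401 identifiers.

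The deposited counts were tested in R 4.3.3 with edgeR 4.0.16 (quasi-likelihood, no legacy fit, TMM, filterByExpr, which kept 19335 genes) over all 4 libraries without a block. Genes were called at a Benjamini-Hochberg adjusted p under 0.05 and a fold change over 1.5. DESeq2 1.42.0, limma 3.58.1 (voom), other scalings and filters, and each library left out were alternatives. EdgeR's quasi-likelihood and legacy fits, DESeq2 and voom were first run on simulated counts. These had a fixed spread between replicates that was not taken from these libraries. The other settings were not run on simulated counts. With 2 against 2 libraries an exact permutation test cannot go below 0.333, so none is given. CPM intervals are 95% Wilson intervals, and intervals and the floor of 3 counts cover counting error only, since reads carry no molecular identifiers.

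All 10 genes are named. Of the 62 other replication genes, those past the limits, otherwise the 3 in each direction with the smallest unadjusted p, and the partners of the 10 genes are named. Lig3, Lig4, Rnaseh1 and Gins4 were added after their values were seen. The 10 genes, the gene lists and the background measure were chosen with earlier results of these data known. Near copies were genes with at least 90% identity to a coding sequence over 150 bases. Pearson's r between the replicate differences of the diets over 19335 genes was 0.01. A correlation over all genes cannot show whether same-numbered libraries were processed together, and this is not given in the sources used here. Sequences of the other promoter matches are not reported here.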

Additional observations from a re-analysis of the deposited data

How the results depend on the processing

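Against 0 calls in edgeR, DESeq2 on all genes called 1360 genes higher and 1179 lower in HFD, of 5601 given an adjusted p (45.3%). Among the 10 replication fork genes it called 1 and 4, of 7 given an adjusted p, and among the 62 others 6 and 9. DESeq2 on the filterByExpr genes called 1039 and 1063 genes, 1 and 4 of the 10, and 3 and 7 of the 62. EdgeR's legacy fit called 12 higher and 22 lower, none of them among the 10 genes. Limma-voom called none, with 750 genes at an unadjusted p under 0.05, and gave smaller log2 fold changes for Rpa3 (-3.63), Prim1 (-4.56) and Rpa2 (0.14). With the replicate block in edgeR 0 genes were called, 1482 genes had an unadjusted p under 0.05, and 1 of the 10 replication fork genes did so instead of 4. The replicate block changed no call, and moved Rpa3 to -4.16 (SE 5.35), Prim1 to -4.55 and Rpa2 to 1.15. With a background of 1 CPM, 34 of 40 pairs of gene and library exceeded it instead of 17. With any 1 library left out edgeR called 0 genes, and the lone library of that diet was assumed to vary like the other pair. In these fits the log2 fold change ran from -0.75 to 0.42 for Rpa1 and from -1.23 to 3.27 for Rpa2, and the other 7 genes kept their direction. Scaling by library size only moved the median log2 fold change of all genes by 0.18, and no direction of the 9 tested genes changed under any scaling. The cause of the differences between methods was not tested. Fen1 had at most 12 counts in a library, and the cause of its low counts was not tested.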
